A study of Rattus norvegicus with 8 samples.

Results

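Lysosomal hydrolases and membrane proteins are described here through 36 genes, chosen by name as probes whose gene name on the array is that of a cathepsin or other lysosomal protease, a glycosidase or sulfatase, a lipid enzyme or its soluble cofactor, or a protein of the lysosomal membrane. Of the 36 genes, 35 had a probe on the array and 34 were tested, among 17444 genes tested in all. The cells were NR8383, a line of alveolar macrophages from the lung of a normal rat, and RNA was taken from 4 cultures given 0.17 µg/mL of NM401, a multi-walled carbon nanotube, for 4 h and from 4 control cultures kept for 4 h without nanotubes (0 µg/mL). Both groups were kept without fetal bovine serum during these hours, and the labels call the 4 cultures of each group biological replicates. A single cell line, dose and time limit what the groups stand for.

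Lysosomes are acidic organelles in which macrophages break down much of what they take up along with their own worn parts, and where particles taken up by phagocytosis arrive. Soluble hydrolases cut proteins, sugar chains and lipids, small cofactors present lipids to them, and a heavily glycosylated membrane holds transporters and channels that export the products. Many of these genes carry the sequence CACGTG near their start in mammals, where transcription factors of the TFEB family bind, and their protein level also depends on sorting, processing and secretion that RNA values do not show.

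The sequence CACGTG was searched in promoters, taken as 250 bases before to 50 bases after the gene start in RefSeq's rat table (assembly GRCr8), which held 30 of the 36 genes. It was present in 8 of these 30 promoters (26.7%), against 6.42% of all 33469 promoters in the table. The longer form TCACGTGA, which contains CACGTG, was in 4 of the 30 (13.3%), against 0.777% of all. Both sequences read the same on both strands. The 8 genes were Cd63, Cln3, Ctsd, Gaa, Glb1, Idua, Lamp1 and Mcoln1. The 4 with the longer form are printed because they show how the element is repeated, with 5 copies for Lamp1 and 2 each for Cln3, Ctsd and Mcoln1, where the second copy of Mcoln1, the one of the longer form, lies after the start and outside the stretch shown. Each line gives the 250 bases before the start, 5′ to 3′ on the gene's own strand, with CACGTG in capitals.

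Lamp1 (GRCr8 chr16:83075064-83075313, minus strand): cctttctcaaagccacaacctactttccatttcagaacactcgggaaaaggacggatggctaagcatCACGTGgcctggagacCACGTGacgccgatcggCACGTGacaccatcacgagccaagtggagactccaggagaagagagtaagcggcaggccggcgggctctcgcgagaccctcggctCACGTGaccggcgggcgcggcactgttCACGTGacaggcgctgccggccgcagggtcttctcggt

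Mcoln1 (GRCr8 chr12:6358008-6358257, plus strand): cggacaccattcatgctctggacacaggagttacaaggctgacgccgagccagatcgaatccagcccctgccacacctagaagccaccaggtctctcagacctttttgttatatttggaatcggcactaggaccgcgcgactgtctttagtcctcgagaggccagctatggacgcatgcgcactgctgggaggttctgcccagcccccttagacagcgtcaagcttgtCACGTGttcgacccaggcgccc

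Cln3 (GRCr8 chr1:190597930-190598179, minus strand): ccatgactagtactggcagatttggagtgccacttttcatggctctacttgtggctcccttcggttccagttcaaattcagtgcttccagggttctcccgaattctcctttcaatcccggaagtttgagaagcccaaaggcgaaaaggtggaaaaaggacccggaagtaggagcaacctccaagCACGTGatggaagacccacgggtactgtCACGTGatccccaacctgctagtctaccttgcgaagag

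Ctsd (GRCr8 chr1:206968822-206969071, minus strand): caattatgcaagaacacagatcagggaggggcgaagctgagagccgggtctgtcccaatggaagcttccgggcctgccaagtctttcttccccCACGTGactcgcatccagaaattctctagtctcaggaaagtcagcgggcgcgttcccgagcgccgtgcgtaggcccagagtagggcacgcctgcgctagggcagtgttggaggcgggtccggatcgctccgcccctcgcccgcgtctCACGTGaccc

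Levels are log2 signals from which each array's own 75th percentile was subtracted, so a value of 0 equals that percentile. A difference is the log2 fold change of NM401 over control cells, with its standard error (SE) from a limma fit of all probes, and adjusted p below 0.05 made a call. Of the 34 genes, 4 were called higher in NM401 cells (Ctsk, Ctsl, Neu1 and Lipa), a share of 11.8% against 21.9% of all genes tested. Ctsk passed the filter on dim probes only through the NM401 arrays, the group where it is high, so its call is no support for a rise. With probes required well above background on all 8 arrays it drops out, and 3 of 33 genes were called higher and 14 lower, against 23.5% and 37.1% of all genes in that fit. A further 14 were called lower (Ctsb, Ctsc, Ctsd, Ctsh, Ctss, Ctsz, Man2b1, Naglu, Smpd1, Asah1, Psap, Grn, Npc1 and Laptm5), a share of 41.2% against 35.4% of all genes, so 18 of the 34 were called in either direction where 57.3% of all genes were. Most of the differences were small. Only Ctsk and Ctsl were called higher by at least 1.5-fold, where 7.05% of all genes were, and only Laptm5 was called lower by as much, where 15.2% of all genes were. The NM401 and control values did not overlap for 18 of the 34 genes, where 53.2% of all genes had no overlap. The median log2 fold change of the 34 was -0.11, beside -0.096 over all genes, a distance of -0.016. In RNA from a whole culture, fewer cells of a kind and less RNA per cell cannot be told apart.

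**Figure D1:**
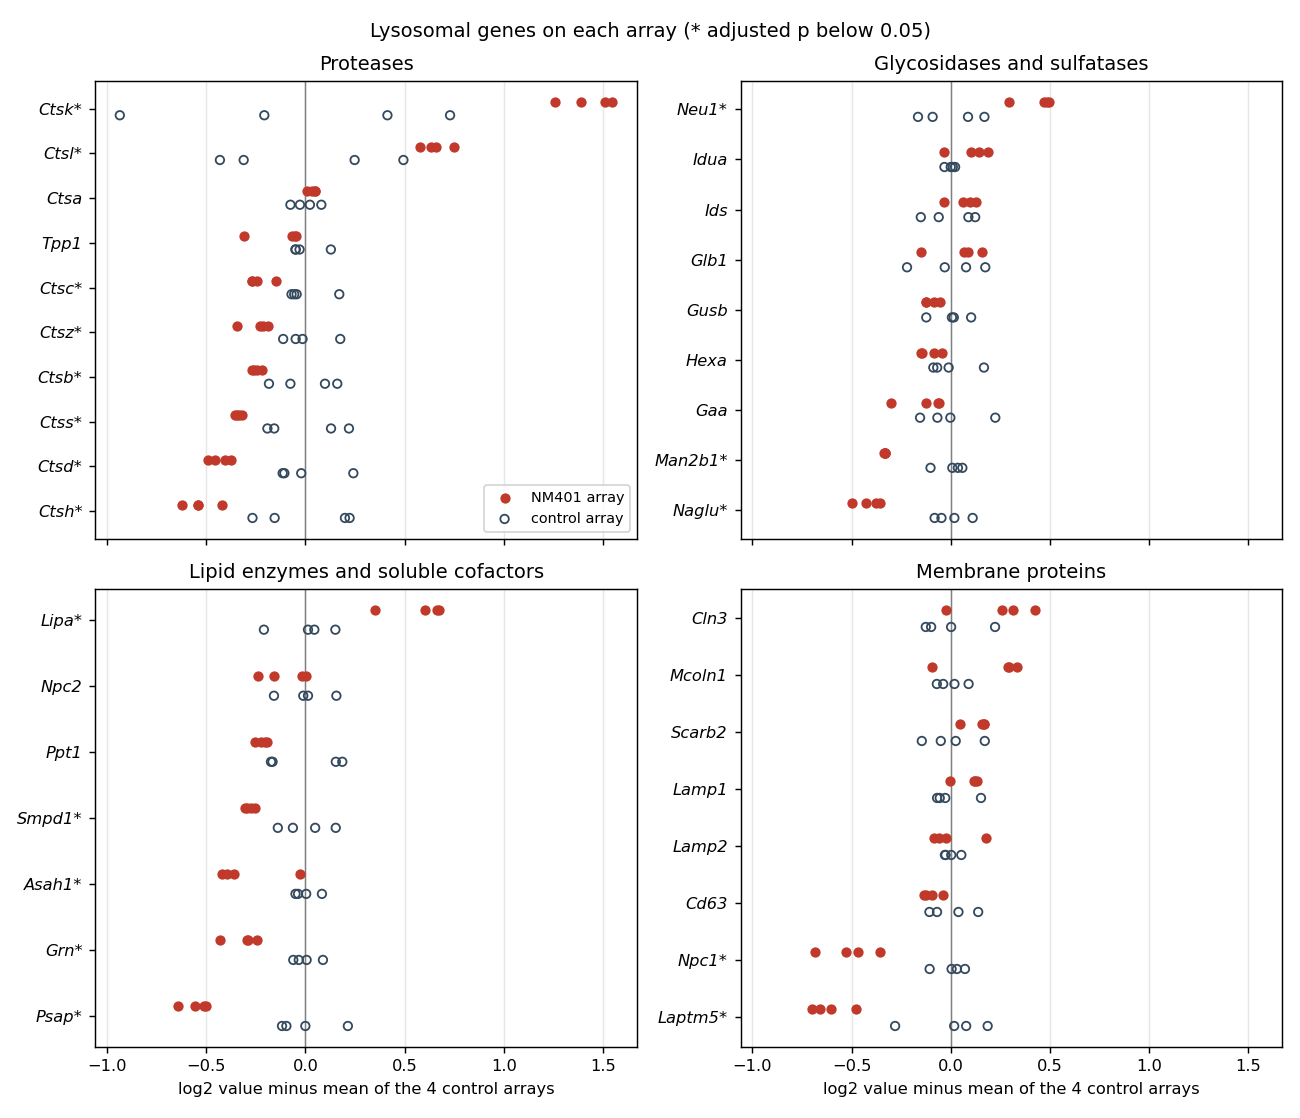
Each row is 1 of the 34 tested genes and each point 1 array, as log2 value minus the mean of the 4 control arrays (x axis). Filled points are the 4 NM401 arrays and open points the 4 control arrays, in 4 panels by role, and an asterisk marks an adjusted p below 0.05. Most NM401 points lie within 0.6 of the control mean on the log2 scale, and Ctsk, which passed the filter only through the NM401 arrays, is the farthest out.

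Several of these directions changed with the scaling between arrays. The median of all genes was -0.096 after scaling to the 75th percentile, -0.010 by quantile normalisation and 0.11 after scaling to the median of each array. Under quantile normalisation 6 of the 34 genes were called higher and 7 lower, against 27.4% and 27.9% of all genes, and under median scaling 12 were called higher and 4 lower, against 35.0% and 19.3%. Ctsl, Neu1 and Lipa were called higher under all 3 scalings, as were 21.9% of all genes (Ctsk, kept by the filter through NM401 arrays alone, is not counted), and Psap and Npc1 were called lower under all 3, as were 18.4%. The sign of the difference turned between the 3 scalings for 8 of the 34 genes, which were Ctsb, Tpp1, Hexa, Gaa, Gusb, Npc2, Grn and Cd63. It turned for 3251 of all 17444 genes. None of the 34 was called higher under 1 scaling and lower under another (0 of 34 by limma, at adjusted p below 0.05). Such opposite calls were rare among all genes too, at 25 of 17444.

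**Figure D2:**
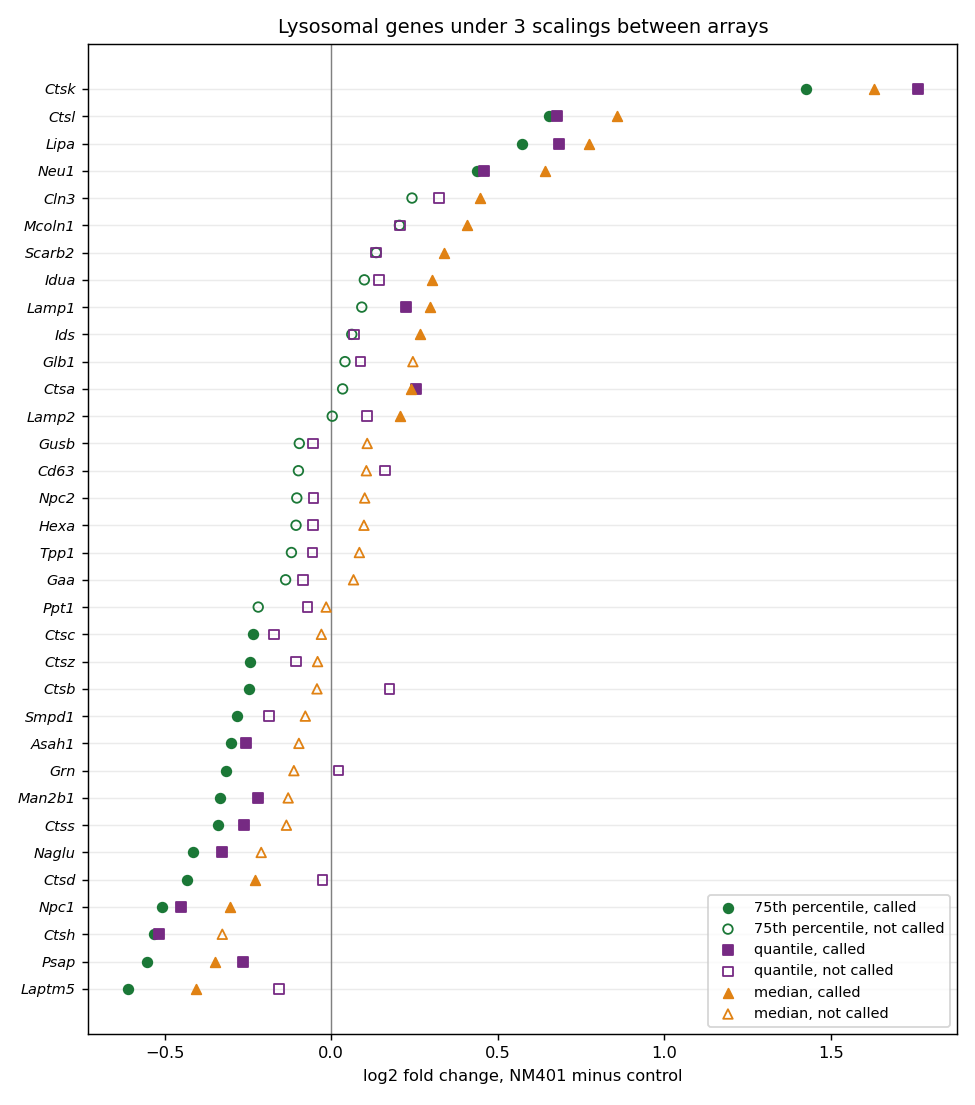
The log2 fold change, NM401 minus control (x axis), of each of the 34 genes (rows) under scaling to the 75th percentile (circles), quantile normalisation (squares) and median scaling (triangles). Filled symbols were called at an adjusted p below 0.05. Symbols of Ctsl, Neu1 and Lipa are filled on the right and those of Psap and Npc1 are filled on the left under all 3, and Ctsk, tested only through its NM401 arrays, is also filled.

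The 2 groups also differed as arrays. The 75th percentile of the processed signal was 2692 ± 172 in NM401 arrays and 1236 ± 224 in control arrays (SD, n = 4 each; exact permutation p = 0.0286, two-sided, the smallest that 4 against 4 arrays allow), and 55.4% ± 1.82 and 54.1% ± 2.12 of spots were well above background (exact permutation p = 0.429). All 4 control arrays and NM401 replicate 1 shared slide 1 and NM401 replicates 2 to 4 lay on slide 2, while each control array sat in the first slide row and each NM401 array in the other, so that group and row cannot be told apart. With slide as a block the comparison reduces to NM401 replicate 1 against the 4 controls. It then called 0 of the 34 genes higher by limma (2 at an unadjusted p below 0.05) and 7 lower (Ctsd, Tpp1, Man2b1, Naglu, Psap, Grn and Npc1), where 12.7% and 20.2% of all genes were called, and a fit of slide 1 alone called 0 higher and 0 lower (0 and 6 unadjusted), where 4.33% and 7.80% of all genes were called. Among probes of 10 spike-in RNAs, the 7 used had a median log2 difference of -2.39 relative to the 75th percentile. Scaling to them would add 2.39 to every difference given here and leave 0 of the 34 genes lower, but that scaling was not fitted. Of 16 macrophage markers on the array 14 were above background on at least 4 arrays, while Marco and Cd163 were above it on none. Of the markers of other cells, 1 of 13 for epithelium, 4 of 10 for lymphocytes, 5 of 12 for fibroblasts and endothelium and 4 of 10 for neutrophils were so. The summed signal of the lymphocyte markers, in units of the 75th percentile, was 0.575 to 0.666 in NM401 cells, against 1.11 to 1.33 in control cells, and that of the macrophage markers was 189 to 201 in NM401 cells, against 196 to 204 in control cells. For neutrophil markers it was 10.5 to 11.8 in NM401 cells, against 3.47 to 21.3 in control cells. Lcn2, which was not called, carried most of this sum. The other 3 tested were called lower: Mpo, S100a8 (-0.93) and Camp (-0.49). Mpo was above background on 0 NM401 and 4 control arrays, and S100a8 on 1 and 3. Mpo thus passed the filter on dim probes only through the control arrays, so its call is no support for a fall. S100a8 passed mainly through them. For fibroblast and endothelial markers the sum was 3.12 to 3.22 in NM401 cells, against 2.93 to 3.82 in control cells, with Dcn called higher (1.49) and Col1a2 (-1.20) and Cdh5 (-1.15) called lower. Of the 4 lymphocyte markers tested 3 were called lower (Nkg7 at -1.24, Cd4 at -1.06 and Cd3d at -0.79) and 0 higher (also 0 at an unadjusted p below 0.05), and of the 14 macrophage markers 4 were called higher and 3 lower. For epithelial markers the sum was 0.136 to 0.189 in NM401 cells, against 0.182 to 0.225 in control cells. The part of these differences in the results below was not tested.

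Among the proteases, 2 of the 10 were called higher (Ctsl and Ctsk) and 6 lower, beside 21.9% and 35.4% of all genes. The 6 cathepsins called lower fell by 0.23 to 0.53 on the log2 scale. Quantile normalisation called 3 of the 10 higher and 2 lower, beside 27.4% and 27.9% of all genes, and turned the sign of Ctsb. Median scaling called 3 higher and 1 lower, beside 35.0% and 19.3% of all genes. The genes called higher were Ctsa, Ctsl and Ctsk under both, the last tested through its NM401 arrays alone. The median of the 10 was -0.24 at the 75th percentile, -0.041 by quantile normalisation and -0.035 by median scaling. Array by array, the median of the 10 relative to the control means was -0.28, -0.21, -0.23 and -0.24 for NM401 replicates 1 to 4, against -0.039, -0.062, -0.014 and 0.10 for control replicates 1 to 4.

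Ctsk, the cathepsin known for collagen breakdown by osteoclasts, had log2 values of -5.52, -5.39, -5.27 and -5.23 in NM401 replicates 1 to 4, against -7.71, -6.99, -6.05 and -6.36 in control replicates 1 to 4. Every NM401 array lay above every control array, and the controls were spread widely. The probe was well above background on 4 of 4 NM401 arrays and on 0 of 4 control arrays, so it was tested only because of the NM401 arrays, and no p is given for it. A floored difference was also taken, with each control value raised to at least the lowest signal of any probe well above background on its array. It was 2.30-fold higher in NM401 cells, which is not a lower limit, because that floor is not the detection limit of this probe. The measured means were -5.35 ± 0.13 in NM401 cells and -6.78 ± 0.74 in control cells (SD, n = 4 each). The direction of this dim probe changed with the background subtraction, with a log2 fold change of -0.29 after normexp correction and -0.090 in the uncorrected pixel medians, and with slide as a block it was 1.26.

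Ctsl, a cysteine protease active against many lysosomal proteins, ranged from -1.14 to -0.97 in NM401 cells, against -2.15 to -1.22 in control cells. The NM401 arrays lay close together and above all controls, which fell into a higher pair, replicates 2 and 4, and a lower pair, replicates 1 and 3. Its log2 fold change was 0.66 (SE 0.20, adjusted p = 0.0222), or 1.57-fold. The call missed the threshold without NM401 replicate 1, at 0.62 (adjusted p = 0.0504), and without control replicate 1, at 0.55 (adjusted p = 0.0566), and with slide as a block it was 0.75 (adjusted p = 0.124).

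Ctsh, a cathepsin that removes amino acids from the start of peptides, had values of -0.47, -0.67, -0.59 and -0.59 in NM401 cells, against 0.17, -0.20, 0.15 and -0.32 in control cells. All 4 NM401 values were below the lowest control, and control replicates 1 and 3 were here the higher pair. The log2 fold change was -0.53 (SE 0.12, adjusted p = 0.00635), with -0.52 under quantile normalisation and -0.33 under median scaling, where it was not called. Ctsd, the main aspartyl protease of lysosomes, had values of 6.25, 6.33, 6.22 and 6.30 in NM401 cells, against 6.59, 6.69, 6.60 and 6.95 in control cells. Here control replicate 4 was the highest array, and the groups did not overlap. Its log2 fold change was -0.43 (SE 0.086, adjusted p = 0.00347), but -0.026 after quantile normalisation (adjusted p = 0.742). Ctss, which trims the invariant chain during antigen presentation, had values of 2.22, 2.21, 2.20 and 2.24 in NM401 cells, against 2.69, 2.40, 2.78 and 2.37 in control cells. The 4 NM401 values lay within 0.04 of each other, below controls that again split into replicates 1 and 3 above replicates 2 and 4. The log2 fold change was -0.34 (SE 0.098, adjusted p = 0.0188). Ctss was also called lower under quantile normalisation (-0.26) and was not called under median scaling (-0.13).

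Ctsb, an abundant cysteine protease, had values of 6.07, 6.10, 6.04 and 6.05 in NM401 cells, against 6.24, 6.41, 6.13 and 6.47 in control cells. The NM401 arrays were all just below the lowest control, replicate 3. Its log2 fold change was -0.25 (SE 0.081, adjusted p = 0.0303), 0.18 by quantile normalisation and -0.043 by median scaling, and it lost its call without NM401 replicate 1, 2, 3 or 4 or control replicate 2 or 4, where the values ran from -0.26 to -0.19. Ctsc, which activates the serine proteases of immune cell granules, ranged from 2.05 to 2.17 in NM401 cells, against 2.25 to 2.49 in control cells, without overlap. Its log2 fold change was -0.23 (SE 0.069, adjusted p = 0.0207), and it was not called without NM401 replicate 2, 3 or 4 (the highest adjusted p was 0.0567). Nor was it called under quantile normalisation (-0.17) or median scaling (-0.0295). A second Ctsc probe, dim and well above background on 3 NM401 and 1 control arrays, gave -0.045 (adjusted p = 0.875). Ctsz, a carboxypeptidase, ranged from 2.99 to 3.14 in NM401 cells, against 3.22 to 3.51 in control cells. It had a log2 fold change of -0.24 (SE 0.074, adjusted p = 0.0226), which without NM401 replicate 1 was -0.21 (adjusted p = 0.0521). Neither quantile normalisation (-0.11) nor median scaling (-0.041) called Ctsz.

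Tpp1, a tripeptidyl peptidase lost in a childhood form of neuronal ceroid lipofuscinosis, had values of 1.01, 1.27, 1.25 and 1.27 in NM401 cells, against 1.29, 1.27, 1.27 and 1.45 in control cells. NM401 replicate 1 stood alone below all other arrays and control replicate 4 alone above them. Tpp1 differed by -0.12 (SE 0.078, adjusted p = 0.221) on the log2 scale and turned to 0.085 under median scaling, while the fit with slide as a block gave -0.31 (adjusted p = 0.0411). Ctsa, the protective protein that holds Glb1 and Neu1 in a complex, ranged from 4.15 to 4.19 in NM401 cells, against 4.07 to 4.22 in control cells. The groups overlapped and the difference was 0.034 (SE 0.052, adjusted p = 0.593). Ctsa was called higher under quantile normalisation, at 0.25 (adjusted p = 0.00248), and under median scaling, at 0.24 (adjusted p = 0.0176).

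Among the glycosidases and sulfatases, 1 of the 9 tested was called higher and 2 lower, beside 21.9% and 35.4% of all genes, and the other 6 did not pass the test. Neu1 rose while Naglu and Man2b1 fell. Median scaling called 3 of the 9 higher and 0 lower by limma (1 lower at an unadjusted p below 0.05), beside 35.0% and 19.3% of all genes. The median of the 9 was -0.096 at the 75th percentile, -0.055 under quantile normalisation and 0.11 under median scaling. Gla, the alpha-galactosidase, had no probe under its name on the array and was not analysed here. Arsb, a sulfatase of dermatan sulfate, was not well above background on any of the 8 arrays.

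Neu1, the sialidase that takes terminal sialic acids from glycoproteins, had log2 values of -0.49, -0.31, -0.29 and -0.28 in NM401 replicates 1 to 4, against -0.95, -0.69, -0.87 and -0.61 in control replicates 1 to 4. NM401 replicate 1 was the lowest of its group and still above the highest control, replicate 4. Neu1 had a log2 fold change of 0.44 (SE 0.089, adjusted p = 0.00392), or 1.35-fold, 0.46 under quantile normalisation, 0.64 under median scaling and 0.29 (adjusted p = 0.129) with slide as a block. Naglu, which removes N-acetylglucosamine from heparan sulfate, had values of 2.15, 2.26, 2.29 and 2.22 in NM401 cells, against 2.56, 2.60, 2.66 and 2.75 in control cells. No value overlapped, and control replicate 4 was the highest. Naglu differed by -0.41 (SE 0.062, adjusted p = 0.000864) on the log2 scale. Man2b1, the lysosomal alpha-mannosidase, had values of 2.65, 2.65, 2.65 and 2.65 in NM401 cells, against 3.02, 2.88, 3.04 and 2.99 in control cells. The NM401 arrays differed by less than 0.01 and the lowest control, replicate 2, lay well above them. It had a log2 fold change of -0.33 (SE 0.052, adjusted p = 0.00109). Under median scaling neither fall was called, with -0.21 for Naglu (adjusted p = 0.051) and -0.13 for Man2b1 (adjusted p = 0.173).

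Idua, which removes iduronic acid from heparan and dermatan sulfate, had values of -0.83, -0.69, -0.60 and -0.65 in NM401 cells, against -0.83, -0.78, -0.77 and -0.79 in control cells. NM401 replicate 1 was the lowest of the 8 arrays and the other 3 NM401 arrays lay above all controls. The difference was 0.10 (SE 0.060, adjusted p = 0.186), and without NM401 replicate 1 it was 0.14 (adjusted p = 0.0445). Without that array, group and slide cannot be told apart, and with slide as a block the difference was -0.034. Median scaling called Idua higher at 0.30 (adjusted p = 0.0175). Hexa, the alpha subunit of beta-hexosaminidase, had values of 0.74, 0.80, 0.84 and 0.73 in NM401 cells, against 0.87, 0.82, 1.05 and 0.80 in control cells. The groups overlapped, with control replicate 3 the highest. Gaa, which breaks down glycogen, had values of 0.74, 0.98, 0.97 and 0.91 in NM401 cells, against 0.88, 1.04, 0.97 and 1.26 in control cells. Here NM401 replicate 1 was the lowest and control replicate 4 the highest array, with the others mixed. Gusb, the beta-glucuronidase, had values of -0.94, -1.01, -0.97 and -1.02 in NM401 cells, against -0.88, -1.01, -0.79 and -0.88 in control cells. Its groups overlapped by little, control replicate 2 lying among the NM401 arrays. The differences were -0.11 (SE 0.069, adjusted p = 0.22) for Hexa, -0.14 (SE 0.095, adjusted p = 0.247) for Gaa and -0.096 (SE 0.060, adjusted p = 0.203) for Gusb, and under median scaling they turned to 0.098, 0.067 and 0.11, in that order. Glb1, the beta-galactosidase, ranged from 0.63 to 0.94 in NM401 cells, against 0.56 to 0.96 in control cells, and Ids, the iduronate sulfatase, from -0.19 to -0.029 in NM401 cells, against -0.31 to -0.031 in control cells. Both overlapped widely, with differences of 0.041 (SE 0.10, adjusted p = 0.747) for Glb1 and 0.062 (SE 0.076, adjusted p = 0.509) for Ids, whose second probe gave -0.024 (adjusted p = 0.886). Under median scaling Ids was called higher, at 0.27 (adjusted p = 0.0147).

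Among the 7 lipid enzymes and soluble cofactors, 1 was called higher and 4 lower, beside 21.9% and 35.4% of all genes. The lower calls numbered 2 under quantile normalisation and 1 under median scaling. Lipa rose, while Psap, Grn, Smpd1 and Asah1 fell, though Grn changed sign under quantile normalisation. The median was -0.28 at the 75th percentile, -0.071 under quantile normalisation and -0.078 under median scaling. Lipa, the acid lipase that frees cholesterol and fatty acids from lipoprotein lipids, had log2 values of 2.99, 3.24, 3.30 and 3.31 in NM401 replicates 1 to 4, against 2.68, 2.79, 2.43 and 2.65 in control replicates 1 to 4. All NM401 arrays lay above all controls, with NM401 replicate 1 the lowest of its group. Lipa had a log2 fold change of 0.57 (SE 0.10, adjusted p = 0.002), or 1.49-fold, and the fit with slide as a block gave 0.35 (adjusted p = 0.081). Psap, prosaposin, the precursor of the saposins that present sphingolipids to their hydrolases, had values of 4.25, 4.38, 4.33 and 4.39 in NM401 cells, against 4.80, 4.77, 4.89 and 5.11 in control cells. NM401 replicate 1 was here the lowest array, and the highest NM401 value was far below the lowest control. It had a log2 fold change of -0.55 (SE 0.082, adjusted p = 0.000867), the control mean being 1.47 times the NM401 mean, and with slide as a block the difference was -0.64 (adjusted p = 0.0121).

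Grn, progranulin, the secreted and lysosomal precursor of the granulins, had values of 4.95, 5.13, 5.09 and 5.09 in NM401 cells, against 5.35, 5.39, 5.32 and 5.47 in control cells. The groups did not overlap and NM401 replicate 1 was the lowest. Its log2 fold change was -0.32 (SE 0.061, adjusted p = 0.00305), but 0.022 after quantile normalisation (adjusted p = 0.762). Smpd1, the acid sphingomyelinase, had values of 2.31, 2.33, 2.28 and 2.29 in NM401 cells, against 2.52, 2.63, 2.44 and 2.74 in control cells. The NM401 arrays lay close together below all controls, of which replicates 2 and 4 were the higher. It had a log2 fold change of -0.28 (SE 0.070, adjusted p = 0.00966), and neither quantile normalisation (-0.19) nor median scaling (-0.078) kept the call.

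Asah1, the acid ceramidase, ranged from 0.62 to 1.01 in NM401 cells, against 0.98 to 1.12 in control cells. NM401 replicate 1 lay among the controls and apart from the other 3 NM401 arrays, so the groups overlapped. Asah1 had a log2 fold change of -0.30 (SE 0.093, adjusted p = 0.0243). The call was lost without NM401 replicate 2, 3 or 4 or control replicate 1 or 2 (the highest adjusted p of these was 0.0675). The log2 fold change was -0.26 under quantile normalisation, which kept the call, and -0.097 under median scaling, which did not. With slide as a block it was -0.029 (adjusted p = 0.812). Npc2, the soluble protein that hands cholesterol to Npc1, had values of 1.99, 2.15, 2.13 and 1.91 in NM401 cells, against 2.14, 2.17, 2.31 and 1.99 in control cells. The groups overlapped, and the difference of -0.10 (SE 0.085, adjusted p = 0.327) turned to 0.10 under median scaling. Ppt1, which removes palmitate from proteins, ranged from 3.09 to 3.15 in NM401 cells, against 3.17 to 3.53 in control cells. Its groups did not overlap, yet the difference of -0.22 (SE 0.095, adjusted p = 0.0808) missed the threshold, and it was called without control replicate 2, at -0.28 (adjusted p = 0.0411), or without control replicate 4, at -0.27 (adjusted p = 0.0419).

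Among the 8 membrane proteins, 0 were called higher by limma, also at an unadjusted p below 0.05, and 2 were called lower, Laptm5 and Npc1, beside 21.9% and 35.4% of all genes. The other 6 (Cd63, Lamp2, Lamp1, Scarb2, Mcoln1 and Cln3) gave differences between -0.098 and 0.24 that did not pass. The median of the 8 was 0.047 at the 75th percentile, 0.15 under quantile normalisation and 0.25 under median scaling. Under median scaling 5 of the 8 were called higher (Cln3, Mcoln1, Scarb2, Lamp1 and Lamp2), where 35.0% of all genes were.

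Npc1, the membrane protein that exports cholesterol from lysosomes, had log2 values of 1.37, 1.20, 1.04 and 1.26 in NM401 replicates 1 to 4, against 1.80, 1.76, 1.62 and 1.73 in control replicates 1 to 4. All NM401 arrays lay below all controls, NM401 replicate 3 farthest and NM401 replicate 1 nearest to them. Npc1 had a log2 fold change of -0.51 (SE 0.080, adjusted p = 0.00109), -0.45 under quantile normalisation and -0.31 under median scaling, and with slide as a block it was -0.36 (adjusted p = 0.0454). Laptm5, a membrane protein of blood-forming cells that takes part in protein turnover in lysosomes, had values of 5.88, 5.76, 5.70 and 5.66 in NM401 cells, against 6.55, 6.38, 6.44 and 6.08 in control cells. Again no value overlapped, and control replicate 4 was the lowest of its group. The log2 fold change was -0.61 (SE 0.10, adjusted p = 0.00167), the control mean being 1.53 times the NM401 mean, but under quantile normalisation it was -0.16 (adjusted p = 0.362).

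Mcoln1, the calcium channel mucolipin that responds to lysosomal stress, had values of -0.055, 0.34, 0.37 and 0.33 in NM401 cells, against -0.028, 0.061, 0.0041 and 0.13 in control cells. NM401 replicate 1 was the lowest of the 8 arrays, while the other 3 NM401 arrays lay above all controls. The difference was 0.20 (SE 0.10, adjusted p = 0.117), and without NM401 replicate 1 it was called at 0.31 (adjusted p = 0.00425). That fit sets NM401 arrays of slide 2 against controls of slide 1, so group and slide cannot be told apart in it. With slide as a block the difference of Mcoln1 was -0.097. Cln3, whose loss causes the juvenile form of neuronal ceroid lipofuscinosis, had values of -3.37, -3.09, -2.92 and -3.03 in NM401 cells, against -3.34, -3.12, -3.44 and -3.47 in control cells. NM401 replicate 1 was again apart, among the lower controls. The difference was 0.24 (SE 0.11, adjusted p = 0.104), and it was called without NM401 replicate 1, at 0.33 (adjusted p = 0.0244), or without control replicate 2, at 0.32 (adjusted p = 0.0448). Without NM401 replicate 1, group and slide again cannot be told apart. Cd63, a tetraspanin of late endosomes and lysosomes, had values of 4.41, 4.32, 4.31 and 4.35 in NM401 cells, against 4.37, 4.58, 4.34 and 4.48 in control cells. The groups overlapped, and the difference of -0.098 (SE 0.066, adjusted p = 0.235) turned to 0.16 under quantile normalisation.

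Lamp1, a heavily glycosylated protein that lines the membrane, ranged from 3.07 to 3.20 in NM401 cells, against 3.00 to 3.22 in control cells, with a difference of 0.092 (SE 0.067, adjusted p = 0.271). Quantile normalisation called Lamp1 higher, at 0.22 (adjusted p = 0.0253). Scarb2, which carries glucocerebrosidase to the lysosome, ranged from -0.023 to 0.099 in NM401 cells, against -0.22 to 0.10 in control cells, with a difference of 0.13 (SE 0.076, adjusted p = 0.161) that was called without control replicate 4, at 0.19 (adjusted p = 0.0376). Lamp2, the other main glycoprotein of the membrane, is made in forms that differ in the membrane-spanning end. Its 2 probes are printed because they gave different results, and which forms each of them reads was not looked up. Positions come from the files (rat build rn4), and the bases run 5′ to 3′ as deposited.

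Lamp2, brighter probe (rn4 chrX:6951662-6951721): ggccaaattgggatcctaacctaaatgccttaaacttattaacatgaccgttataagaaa

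Lamp2, second probe (rn4 chrX:6931712-6938320): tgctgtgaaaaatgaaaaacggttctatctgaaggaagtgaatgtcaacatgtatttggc

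The brighter probe, which lies in 1 block of 60 bases, ranged from 2.61 to 2.87 in NM401 cells, against 2.67 to 2.75 in control cells, with a difference of 0.0031 (SE 0.069, adjusted p = 0.973). The second probe, whose 60 bases span 6609 bases of the genome, had values of 0.10, -0.061, -0.0084 and -0.079 in NM401 cells, against -0.19, -0.23, -0.23 and -0.21 in control cells. All NM401 values of the second probe lay above all controls, with a log2 fold change of 0.20 (SE 0.056, adjusted p = 0.0154). No test of the difference between the probes was made. The representative probes of Ctsk and of the 5 other genes called alike under all 3 scalings lie on rn4 at chr2:190405601-190405660 for Ctsk, chr17:6293891-6293950 for Ctsl, chr20:3999866-3999925 for Neu1, chr1:238467200-238467259 for Lipa, chr20:27619591-27619650 for Psap and chr18:3725425-3725484 for Npc1, and their place within exons was not looked up here.

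**Figure D3:**
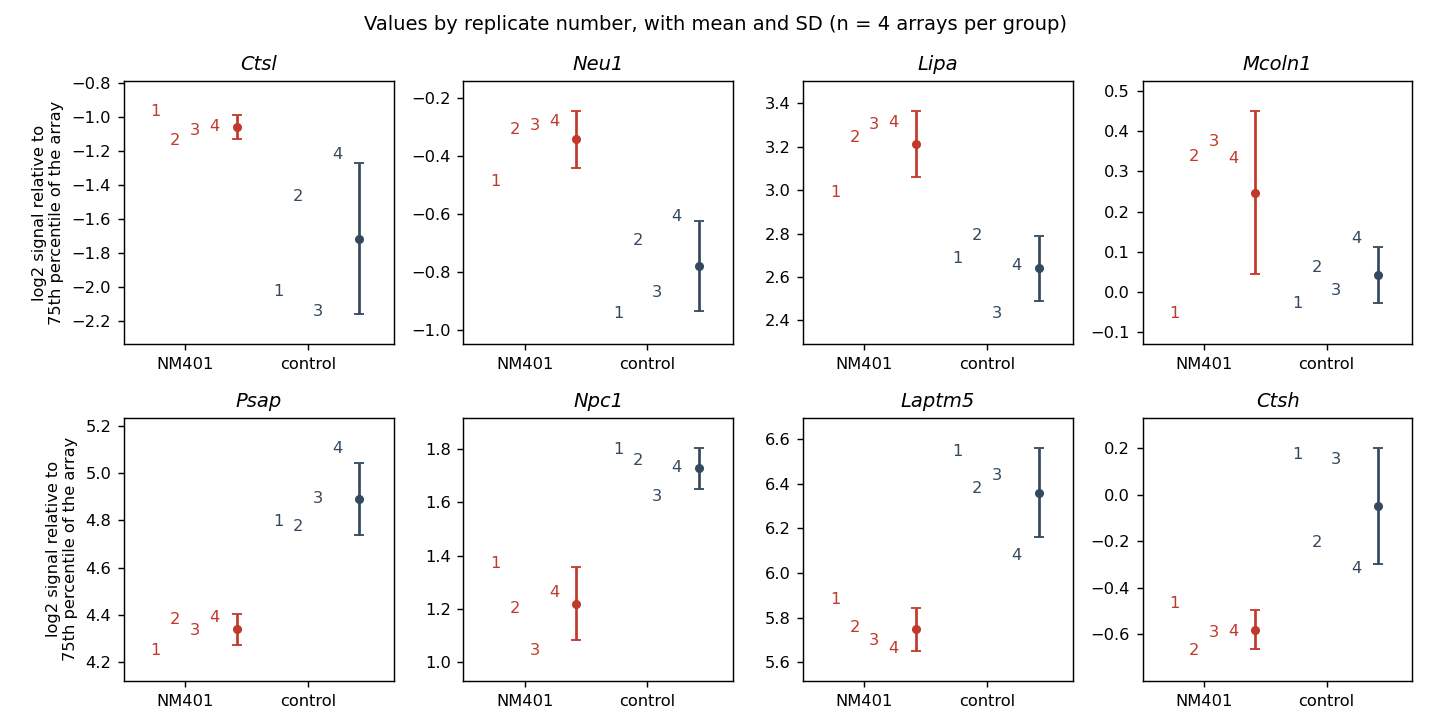
Log2 signal relative to the 75th percentile of the array (y axis, each panel with its own range) for 8 genes, with NM401 arrays left and control arrays right. Numbers are replicates and the dots with bars are means ± SD (n = 4 each). NM401 replicate 1 is the lowest array for Mcoln1, and control replicates 1 and 3 lie apart from 2 and 4 for Ctsl and Ctsh.

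Set by promoter, 7 of the 14 genes that were not called and had a promoter in the table held CACGTG, against 1 of the 11 called lower (Ctsd) and 0 of the 4 called higher. These counts describe the window searched and had no test.

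The 34 genes were bright on these arrays, with 16 among the brightest 1745 of the 17444 genes tested (group 10 of 10 by mean signal). There 58.5% of all genes were called lower and 11.1% higher, with a median log2 fold change of -0.25, and of the 16 genes 10 were called lower and 1 higher (Lipa), with a median of -0.26. The falls among the bright lysosomal genes were thus close to those of other bright genes. Lipa was higher in a group where most called genes were lower. Ctsh was lower in group 7 of 10, where the median of all genes was near 0 but 29.8% of them were called lower. The standard deviation between replicates had a median of 0.0702 in NM401 cells and 0.128 in control cells over the 34 genes, and it was larger in control cells for 25 of them, where it was so for 66.1% of all genes.

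**Figure D4:**
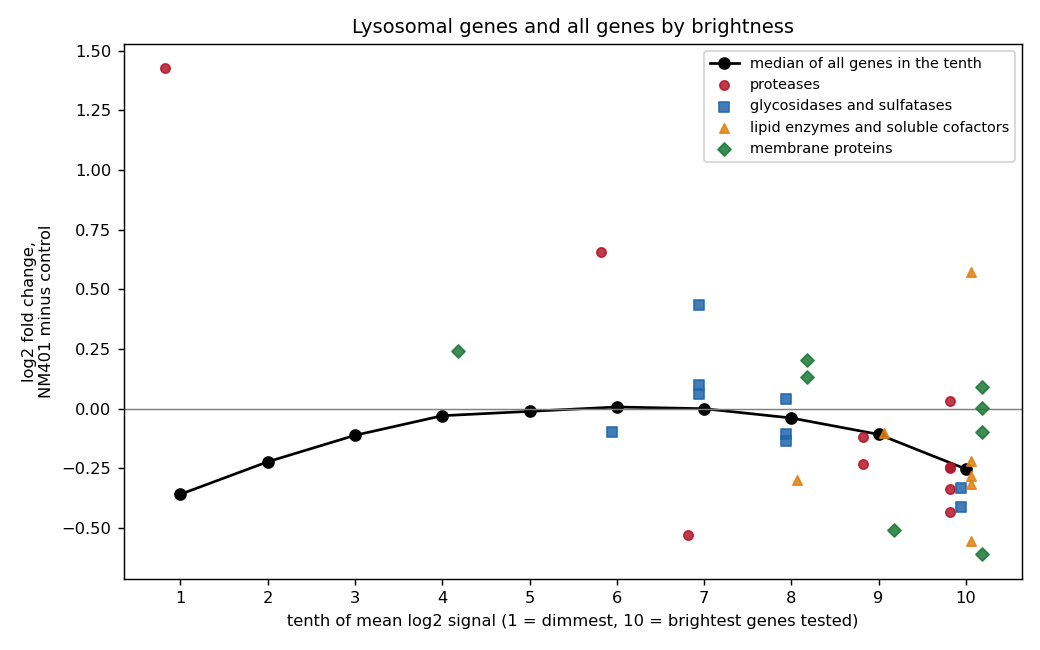
Log2 fold change, NM401 minus control (y axis), against mean log2 signal in 10 groups of equal size (x axis, 1 dimmest, 10 brightest) for the 34 genes, with symbols by role. The black line is the median of all genes tested in each group, which falls to -0.25 in group 10, where 16 of the 34 genes lie.

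Other lysosomal genes were counted from lists chosen with earlier results of these data known, and their counts stand beside 21.9% of all genes called higher and 35.4% called lower (21.9% and 18.4% under all 3 scalings). Of 27 other hydrolases and activators tested, 5 were called higher, all under the 3 scalings, and 12 lower, 7 of them under all 3. The lysosomal phospholipase Pla2g15 had a log2 fold change of -0.72 (SE 0.057, adjusted p = 7.2e-05) and the sialate esterase Siae of -0.68 (SE 0.056, adjusted p = 8.39e-05). Of 21 other membrane proteins and transporters, 6 were called higher and 6 lower. Among them Mcoln2, a channel of the mucolipin family, gave 0.99 (SE 0.062, adjusted p = 4.11e-05), Tmem106b gave 0.33 (SE 0.057, adjusted p = 0.00171), and the macrophage glycoprotein Cd68 gave -0.36 (SE 0.056, adjusted p = 0.00113), which was not called under quantile normalisation (-0.081) or median scaling (-0.15). The 6 higher calls of this list were made under all 3 scalings, and 0 of its 6 lower calls were.

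Of 15 genes that tag hydrolases with mannose 6-phosphate or sort them, 2 were called higher, both under all 3 scalings, and 5 lower, 3 of these under all 3. The sorting receptor Sort1 had a log2 fold change of -0.84 (SE 0.077, adjusted p = 0.000118), the clathrin heavy chain Cltc of -0.43 (SE 0.054, adjusted p = 0.000386) and the adaptor subunit Ap3b1 of -0.49 (SE 0.065, adjusted p = 0.000508). Of 8 cathepsin inhibitors listed 4 were tested and all 4 were called, where 57.3% of all genes were, the cystatins Cstb, at 0.67 (SE 0.068, adjusted p = 0.00016), and Cst3, at 0.45 (SE 0.090, adjusted p = 0.00371), higher, and the serpins Serpinb1a, at -0.76 (SE 0.053, adjusted p = 4.99e-05), and Serpinb6a, at -0.44 (SE 0.12, adjusted p = 0.0126), lower. The fall of Serpinb6a was not called under median scaling. Of 7 genes that mark or sense damaged lysosomes, 1 was called higher, also under all 3 scalings, and 5 lower, 4 of the 5 under all 3 (beside 35.4% of all genes lower, and 18.4% under all 3). The galectin Lgals8 rose, at 0.36 (SE 0.047, adjusted p = 0.000452), and the galectin Lgals1, at -1.14 (SE 0.11, adjusted p = 0.000148), and the ubiquitin ligase subunit Fbxo27, at -0.98 (SE 0.14, adjusted p = 0.000629), fell.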

How the data were processed

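RNA of 8 NR8383 cultures (4 NM401, 4 control) was measured on 1-colour Agilent arrays. The authors deposited scanner files of spot intensity made with Agilent Feature Extraction 11.0.1.1, per the submitters' processing notes and the file headers. Their processed signal was background-subtracted within each array and not scaled between arrays, per the file headers. The deposited series table holds the median pixel intensity of the same spots (503808 of 503808 values equal).

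Of 62976 spots per array 58717 were not controls. Spots flagged as outliers were left out and spots of 1 probe averaged on the log2 scale, which gave 45598 probes, 47 of them dropped because all spots were flagged on some array. Processed signals were put on the log2 scale and centred on each array's 75th percentile over non-control spots. Only probes that 4 or more of the 8 arrays showed well above background (21684) were compared with limma 3.58.1 in R 4.3.3 (lmFit and eBayes, two-sided, no covariate, files read with the package data.table, version 1.17.8), with Benjamini-Hochberg adjustment over all of them, and each gene is shown by its brightest tested probe. The script was tested on simulated data. The number of arrays limits the precision. The p-values rest on the spread between arrays of a group, which holds culture, slide and place on the slide together.

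The 36 genes and all lists were chosen with earlier results of these data known. Values of every array are given, in each role, for up to 4 tested genes with the smallest p and for genes whose direction changed under a scaling, others by range, and in the other lists for up to 3 called genes with the smallest p. A gene that this rule names is not reported here. Serpinb6a was named as the last of 4 inhibitors after its value was seen. Alternatives tried were normexp correction (offset 50), quantile and median scaling, no filter or a filter on all 8 arrays, the mean of a gene's probes, the series values, slide as a block or slide 1 alone, replicate number as a block, and leaving out each array. Leaving out control replicates 1 and 3 or 2 and 4 was added after seeing the data. Deviations from the group means of arrays with the same replicate number correlated across genes at 0.193, -0.003, 0.084 and -0.072, so the numbers were not taken to pair the cultures. RefSeq's rat promoters (GRCr8) were matched by symbol.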

Additional observations from a re-analysis of the deposited data

Results flagged for a closer look

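In 8 of 68 groups of 4 arrays, 1 array stood far from the other 3 (by Dixon's test of the gap to the nearest one over the whole range), where chance alone would give about 1 in 20 groups. In 6 of the 8 the array was NM401 replicate 1, the NM401 array on slide 1, and over all genes that array stood apart in 5.43%, against 0.745% to 0.854% for the other NM401 arrays.

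NM401 replicate 1 was the low array for Tpp1 (1.01, the others 1.25 to 1.27), Neu1 (-0.488, the others -0.310 to -0.283), Lamp1 (3.07, the others 3.19 to 3.20), Scarb2 (-0.023, the others 0.089 to 0.099) and Mcoln1 (-0.055, the others 0.33 to 0.37). For Asah1 it was the high array, at 1.01 where the others were 0.62 to 0.67. Among control arrays, replicate 1 was high for Ctsc (2.49, the others 2.25 to 2.28) and replicate 4 was high for Tpp1 (1.45, the others 1.27 to 1.29). All are log2 values relative to the 75th percentile of the array.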

How the results depend on the processing

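Scaling and slide moved the counts most. Genes called lower numbered 9406 after normexp correction, and under median scaling 6113 genes were called higher and 3360 lower. Of the 34 lysosomal genes, 12 were called higher and 4 lower under median scaling (median log2 fold change 0.091). Under quantile normalisation 7 were called lower (median -0.040), where 4873 of all genes were. With no filter on dim probes 9 of 35 were called lower, where 7764 of 36276 genes were. The series values gave a median of -0.082. With slide as a block 2216 genes were called higher and 3525 lower, and 0 (2 unadjusted) and 7 of the 34. Within slide 1 alone these were 755 and 1361, and 0 and 0 of the 34 by limma (0 and 6 unadjusted), with a median of -0.149 in both fits. The cause was not tested.

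The direction reversed for Ctsk with normexp correction (-0.286) and in the series values (-0.090), and for Ctsb (0.176) and Grn (0.022) under quantile normalisation. Leaving out 1 array gave 3 to 6 of the 34 genes higher and 11 to 14 lower, with medians between -0.140 and -0.101. The replicate block, which pairs cultures of the same number, gave 4 higher and 14 lower of the 34 and 3535 and 5845 of all genes, so no count moved by over 1.5 times. Without control replicates 1 and 3 the 34 genes gave 4 higher and 10 lower. Without 2 and 4 they gave 4 and 13, Ppt1 then falling by 0.39 (limma, adjusted p = 0.00304). For the fits that left out arrays, the counts over all genes are not given here. Whether the 34 genes moved apart from the rest thus cannot be read from those fits. Signal over background limits Ctsk and Arsb.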

Other observations

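Control replicates 1 and 3 lay both above or both below replicates 2 and 4 in 19 of the 34 lysosomal genes (above in 9 and below in 10), and in 32.6% of all genes tested. The pairing of replicate 1 with 2 against 3 and 4 held in 12 of the 34, where 41.3% of all genes had it, and that of 1 with 4 in 3, where 26.1% had it.

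Ratios within an array do not depend on the scaling to a percentile or median. The log2 fold change of Lipa exceeded that of Npc1 by 1.08 and that of Psap by 1.13, and the log2 fold change of Neu1 exceeded that of Naglu by 0.851. For each of these pairs the within-array differences of the 4 NM401 arrays lay above those of the 4 control arrays. This had to be so and adds no support. Lipa and Neu1 lay higher, and Npc1, Psap and Naglu lower, on every NM401 array than on every control array. The pairs were chosen after their values were seen and had no test.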
